A study of Caenorhabditis elegans with 2 samples.

Results

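Of the 15675 peaks that the authors called on both replicates together, 4447 had their summit inside an intron of a protein-coding gene, in no exon of any gene and in no coding promoter window. A promoter window ran from 1000 bp upstream to 200 bp downstream of a coding gene's annotated 5′ end, and these 4447 intron summits made up 28.4% of the pooled list. The position of the summit alone chose them, and signal, replicate overlap and sequence were not used. Keeping to introns still bears on sequence, as the bases open to the choice were 31.9% GC. The data were chromatin immunoprecipitation with sequencing (ChIP-seq) on whole larvae of the first stage (L1) of Caenorhabditis elegans, of mixed sex, strain OP217. This strain carries the unc-119(ed3) III mutation and the insertion ddIs172, which expresses ALY-2 tagged with eGFP, and both biological replicates share all of it. There was 1 group of 2 replicates and no second condition. Peak lists existed for each replicate, for both pooled, and as a final list of 1446 peaks that passed the authors' test of reproducibility between replicates. All 1446 were pooled peaks of the same position and signal, and no other pooled peak had a higher signal than any of them, so a final peak here is one with a signal of 42.7 or more. Read depth is unknown and no control reads were analysed here, so whether any recovery was particular to ALY-2 was not tested. A whole larva mixes many tissues, which peaks cannot tell apart.

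ALY-2 is a REF/ALY protein, one of the RNA-binding adaptors that join nascent messenger RNA and hand it on to the export receptor. Introns of C. elegans are mostly short and rich in A and T. Some hold other genes, such as those for transfer RNA (tRNA), small nucleolar RNA (snoRNA, which guides the modification of other RNAs), small nuclear RNA (snRNA, part of the splicing machinery) and microRNA (miRNA), and some hold start sites of shorter transcripts of the host gene. Genes for tRNA are transcribed by RNA polymerase III from a promoter inside the gene, whereas snRNA genes have their promoter just upstream.

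Sequences at intron summits are shown here for the kinds of site that the strongest of them fell on. All are from the RefSeq assembly on ce11 (WBcel235), 5′ to 3′ on the strand named, in lower case. The first set are sites at small RNA genes, written along the small RNA gene's strand from 20 bp before the summit to 20 bp after the gene, with the gene in capitals. They show how close the summit, which is base 21 of each line, was to the 5′ end of the gene. The snoRNA sites are pxn-1 (chrV:8500508-8500665, plus strand, gene ZK994.7), catp-8 (chrIV:11474039-11474325, minus strand, gene C10C6.8) and frm-7 (chrV:12303678-12303803, plus strand, gene C51F7.3). The tRNA sites are fbxl-4 (chrX:6593484-6593688, plus strand, gene WBGene00023154), inft-2 (chrV:13003489-13003619, minus strand, gene WBGene00014331) and ZK1193.2 (chrX:410268-410482, plus strand, gene WBGene00023117).
pxn-1, ZK994.7: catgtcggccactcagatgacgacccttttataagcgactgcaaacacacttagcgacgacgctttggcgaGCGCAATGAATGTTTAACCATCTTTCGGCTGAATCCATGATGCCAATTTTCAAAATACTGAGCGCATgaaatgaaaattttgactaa
catp-8, C10C6.8: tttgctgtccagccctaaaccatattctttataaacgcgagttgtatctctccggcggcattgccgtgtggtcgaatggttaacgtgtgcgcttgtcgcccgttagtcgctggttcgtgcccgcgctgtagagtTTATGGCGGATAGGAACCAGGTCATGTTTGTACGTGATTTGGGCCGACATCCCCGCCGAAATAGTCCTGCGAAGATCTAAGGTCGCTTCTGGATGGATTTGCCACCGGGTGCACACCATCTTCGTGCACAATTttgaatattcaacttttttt
frm-7, C51F7.3: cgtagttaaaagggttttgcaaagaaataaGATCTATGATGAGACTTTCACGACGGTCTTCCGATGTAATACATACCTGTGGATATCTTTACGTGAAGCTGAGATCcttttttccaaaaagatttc
fbxl-4, WBGene00023154: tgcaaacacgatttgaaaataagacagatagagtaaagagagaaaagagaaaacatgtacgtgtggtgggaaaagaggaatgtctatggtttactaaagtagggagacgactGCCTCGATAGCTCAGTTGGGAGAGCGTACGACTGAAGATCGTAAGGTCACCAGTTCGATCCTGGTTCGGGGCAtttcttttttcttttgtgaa
inft-2, WBGene00014331: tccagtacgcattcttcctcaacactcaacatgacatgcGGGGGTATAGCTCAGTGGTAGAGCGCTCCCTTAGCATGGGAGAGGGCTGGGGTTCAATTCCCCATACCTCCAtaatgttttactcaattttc
ZK1193.2, WBGene00023117: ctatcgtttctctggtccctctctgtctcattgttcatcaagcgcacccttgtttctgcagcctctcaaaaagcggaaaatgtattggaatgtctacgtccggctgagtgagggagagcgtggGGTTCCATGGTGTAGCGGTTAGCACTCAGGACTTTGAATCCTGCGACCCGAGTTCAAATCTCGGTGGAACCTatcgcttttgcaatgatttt

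The second set are 75 bp on either side of the 3 strongest intron summits off the first chromosome with a certain word of 10 bases there. The word is GAGACGCAGA, in capitals, and each line is written on the strand on which it reads so. They are Y111B2A.12 (chrIII:12612601-12612751, minus strand), larp-1 (chrIII:5014058-5014208, plus strand) and epg-9 (chrIV:2602074-2602224, minus strand).
Y111B2A.12: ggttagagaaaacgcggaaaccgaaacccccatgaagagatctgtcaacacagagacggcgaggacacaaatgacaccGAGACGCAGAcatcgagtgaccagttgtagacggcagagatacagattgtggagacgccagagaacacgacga
larp-1: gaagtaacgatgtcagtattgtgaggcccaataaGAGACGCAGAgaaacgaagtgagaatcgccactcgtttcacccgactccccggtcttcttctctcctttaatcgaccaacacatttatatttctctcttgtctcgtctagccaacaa
epg-9: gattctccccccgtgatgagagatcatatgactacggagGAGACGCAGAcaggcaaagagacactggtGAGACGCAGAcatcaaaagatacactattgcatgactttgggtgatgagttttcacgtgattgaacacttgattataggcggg

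The third set are the 2 strongest intron summits off the first chromosome with neither that word nor a small RNA gene, on the plus strand, with the middle 21 bp in capitals. They are Y41G9A.17 (chrX:2997044-2997194) and mnk-1 (chrII:10552034-10552184). The GC content of these lines was 33.8% for Y41G9A.17 and 47.02% for mnk-1.
Y41G9A.17: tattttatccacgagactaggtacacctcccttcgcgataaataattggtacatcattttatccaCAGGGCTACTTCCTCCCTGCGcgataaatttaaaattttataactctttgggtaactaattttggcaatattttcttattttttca
mnk-1: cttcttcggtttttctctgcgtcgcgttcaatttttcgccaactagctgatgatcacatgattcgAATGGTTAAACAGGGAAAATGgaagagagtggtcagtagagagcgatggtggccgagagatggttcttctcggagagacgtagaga

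Intron summits were common in the pooled list and scarce among its strongest peaks. Of the 4447 intron summits, 170 were in the final list, or 3.82% (exact 95% interval 3.28 to 4.43), against 9.22% of all pooled peaks. The same share was 17.5% for summits in coding promoter windows, 7.14% for summits in exons and 6.83% for those elsewhere. In each replicate's own list, with the final list replaced by as many of its strongest peaks, introns gave 4.06% ± 0.116 (SD, n = 2) and promoter windows 16.7% ± 0.412. Introns thus held 11.8% of final summits, against 56.5% in promoter windows. The intron share grew down the list. It was 8 of 100 peaks at pooled ranks 1 to 100, 12.25% at ranks 101 to 500, 11.9% at ranks 501 to 1446, 24.5% at ranks 1447 to 5000, 30.6% at ranks 5001 to 10000 and 33.1% below. Intervals on shares are exact (Clopper-Pearson) and cover counting error only.

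**Figure D1:**
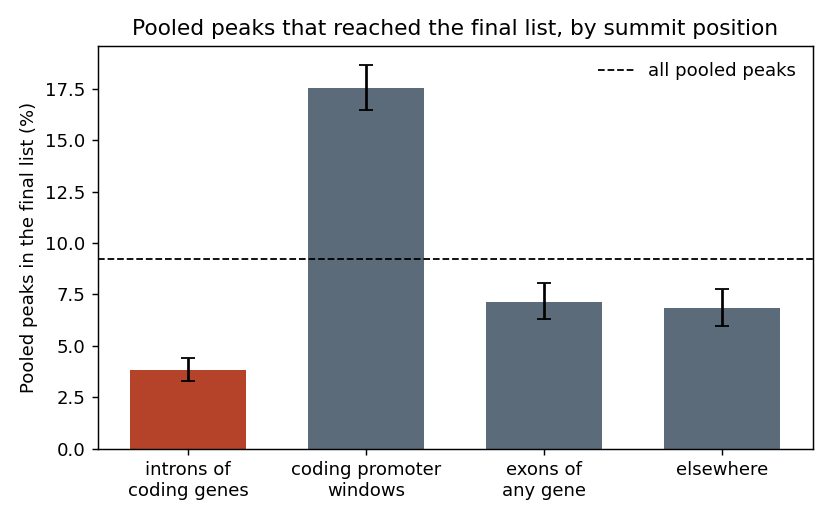
Percent of pooled peaks that were in the final list, for summits in introns, in coding promoter windows, in exons and elsewhere, with exact 95% intervals as bars and the dashed line at the 9.22% of all pooled peaks. Introns stood lowest at 3.82% and promoter windows highest at 17.5%.

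The rule left out some summits that lie in introns. In all 5354 pooled summits fell in an intron of a coding gene. Of these, 503 were also in an exon of some gene, 49 of them final, and 404 were in a promoter window, 42 of them final. Members just outside the upstream edge of the window, in introns of dhhc-11, enpl-1 and his-47, lay at positions -1001, -1004 and -1009 from a coding 5′ end with signals of 16.98, 27.1 and 16.4. Summits just inside that edge, in introns of T28F4.4, toc-1 and B0563.6, lay at -999, -991 and -986 with signals of 24.3, 19.6 and 23.2. At the downstream edge, members in ZC404.2, irld-11 and C48D5.3 all lay at 203 with signals of 23.8, 21.3 and 19.7. Left out there were summits in fkh-6, Y50D7A.3 and pha-1, all at 199, with signals of 21.2, 18.7 and 17.2. None of these 12 summits was final.

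The signal, a value per peak from the authors' caller on a scale that is not given, had a median of 19.98 over intron summits and 22.997 over promoter summits. It reached 243 in introns and 515 in promoter windows. A peak in each replicate list overlapped 61.1% of intron summits' peaks, against 72.1% of those in promoter windows. At matched signal, introns and the rest of the pooled list were close. Below a signal of 20 the share was 41.0% in introns (exact 95% interval 39.0 to 43.1) and 43.3% among other pooled peaks (41.8 to 44.7), and from 25 to 30 it was 88.2% in introns and 88.6% among the others. Of the 170 final intron peaks, 169 were overlapped in both replicates. Among the 1446 strongest peaks of each replicate's own list, 97 of the 170 (57.1%) were found in both, against 61.1% of the other final peaks.

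The strongest intron summits fell in genes of many kinds, and several sat beside a gene for a small structural RNA. The first, ranked 13 of all pooled peaks, was in the last of the 6 introns of Y41G9A.17, with a signal of 243 in the pooled list, 102.6 in replicate 1 and 139 in replicate 2. The second was in intron 15 of vab-10, which encodes a spectraplakin that links the skeleton of epidermal cells to their attachments, with 213, 96.0 and 123 in the same order. Both ranked within the first 25 of each replicate list, and neither had a small RNA gene within 500 bp. Further down, intron 2 of mnk-1, a kinase that acts downstream of MAP kinases, had 165, 96.6 and 66.8. Intron 17 of pxn-1, a peroxidasin, had 161, 95.1 and 68.9, with the summit 51 bp upstream of the snoRNA gene ZK994.7.

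Those next in signal were in Y111B2A.12 with 154, mom-1 with 146, W06H8.6 with 128 and zfp-1 with 116. Gene mom-1 encodes the Porcupine acyltransferase that Wnt proteins need, and zfp-1 a zinc finger protein related to mammalian AF10. T28F4.1 followed with 107, catp-8, a cation ATPase, with 104, and R02F2.1 and the FERM domain gene frm-7 with 101.3 and 101.1. Then came the Integrator subunit gene ints-8 with 100.01, the RNA-binding protein gene larp-1 with 99.6, the cyclin E gene cye-1 with 99.4 and pqn-41 with 97.4. Y45F10D.7 had 95.1, the autophagy gene epg-9 92.1 and eef-2, for translation elongation factor 2, 90.2. In ints-8 the summit lay 5 bp upstream of rpr-1, the RNase P RNA gene, which the annotation lists as ncRNA on the opposite strand, and the 100 bp on either side were 62.7% GC. All 20 were among the 1446 strongest peaks of each replicate. Of the 20, 5 lay within 500 bp of an snRNA, snoRNA or tRNA gene in the intron, 8 near a small RNA gene of any annotated kind, and 2 in a first intron.

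**Figure D2:**
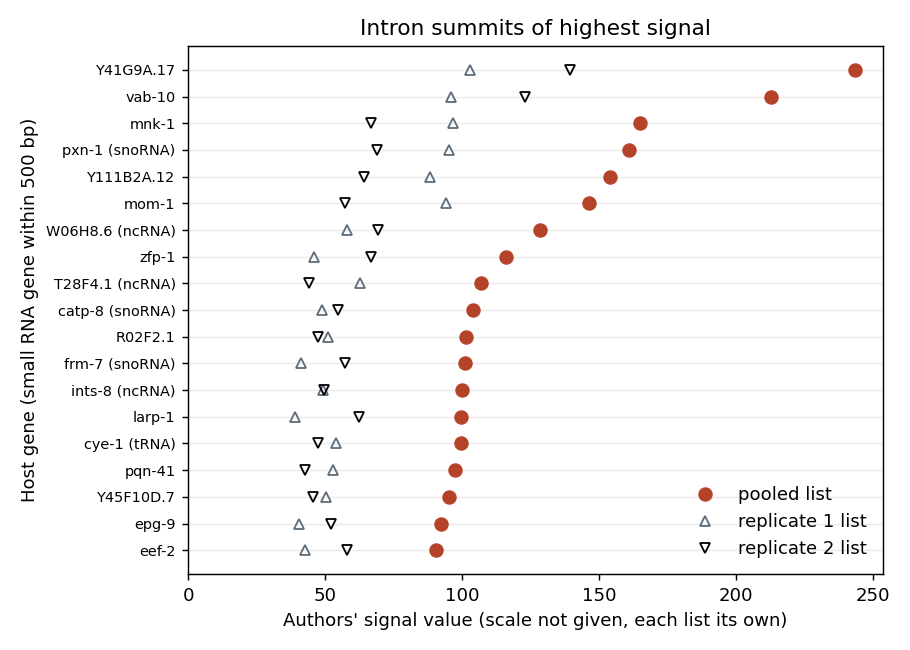
Signal of 19 of the 20 strongest intron summits in the pooled list (filled circles), replicate 1 (upward triangles) and replicate 2 (downward triangles), one host gene per row with any small RNA gene within 500 bp in brackets. Each list has its own scale, so compare the order of genes and not the level between lists. Y41G9A.17 and vab-10 were the top 2 in the pooled list and in replicate 2, and in replicate 1 Y41G9A.17 was first.

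Introns next to a snoRNA, tRNA or snRNA gene held the densest final summits. The bases within 500 bp of such a gene in the same intron made up 0.614% of the intron sequence that the rule allows, and carried 121 intron summits, 41 of them final. That is 661 summits per Mb, against 146 per Mb elsewhere in introns, a ratio of 4.53 (replicates 4.25 ± 0.202, SD, n = 2). For final summits it is 224 per Mb, against 4.35 per Mb, a ratio of 51.5. The replicates' own strongest peaks gave 37.2 ± 5.85. Of the 121, 33.9% were final (exact 95% interval 25.5 to 43.05), against 2.98% of intron summits away from these genes (2.50 to 3.53). These genes thus accounted for 24.1% of the final intron summits and 2.72% of all intron summits. Copies of tRNA and snRNA genes can be near-identical, so reads cannot be assigned to one copy with certainty. A summit inside the small RNA gene itself is in an exon and was not a member.

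Each of the 3 kinds of gene showed this. Of 346 snoRNA genes, 178 lay wholly inside an intron of a coding gene. An intron summit lay within 500 bp of 42 of the 178, and a final one near 16. Of 612 tRNA genes, 286 lay in introns, of which 71 had an intron summit nearby and 21 a final one. Of 129 snRNA genes, 55 lay in introns, of which 12 had an intron summit nearby and 3 a final one. The final share of the summits was 38.6% near snoRNA genes (17 of 44), 31.8% near tRNA genes (21 of 66) and 27.3% near snRNA genes (3 of 11), with wide and overlapping exact 95% intervals of 24.4 to 54.5, 20.9 to 44.4 and 6.02 to 60.97.

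Among final summits outside the small RNA gene, the only ones the rule keeps, nearly all were just upstream of it. Final pooled summits also lay inside 9 snoRNA, 9 tRNA and 1 snRNA genes in introns, and those are not counted here. Of the 41 final intron summits, 35 lay upstream of the small RNA gene's 5′ end (85.4%, exact 95% interval 70.8 to 94.4). Upstream bases made up 54.8% of the bases around these genes. The replicates alone gave 87.6% ± 6.05 (SD, n = 2). All 35 fell at positions from -114 to -4, with a median of -51, as the printed lines for ZK994.7 and C51F7.3 show. By kind they were 12 of 17 at snoRNA genes, 20 of 21 at tRNA genes and 3 of 3 at snRNA genes. Of the 80 such summits that were not final, 46 (57.5%) lay upstream, with an interval of 45.9 to 68.5. Of the 41 final summits, 27 were at a small RNA gene on the strand of its host gene, 14 of 17 at snoRNA, 11 of 21 at tRNA and 2 of 3 at snRNA genes. Of all such genes in introns, 150 of 178 snoRNA, 163 of 286 tRNA and 35 of 55 snRNA genes lay on the host's strand. In fbxl-4, inft-2 and ZK1193.2, whose sequences are above, the summits lay 92, 19 and 103 bp before the tRNA gene, with signals of 89.1, 85.3 and 83.05. The letters GTTCGA or its reverse complement, found within the B box of many tRNA genes, occurred in the 100 bp on either side of 12.4% of final intron summits and 7.08% of the others. They occurred in 5.70% of windows 500 bp from any intron summit, final or not, in the same intron.

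**Figure D3:**
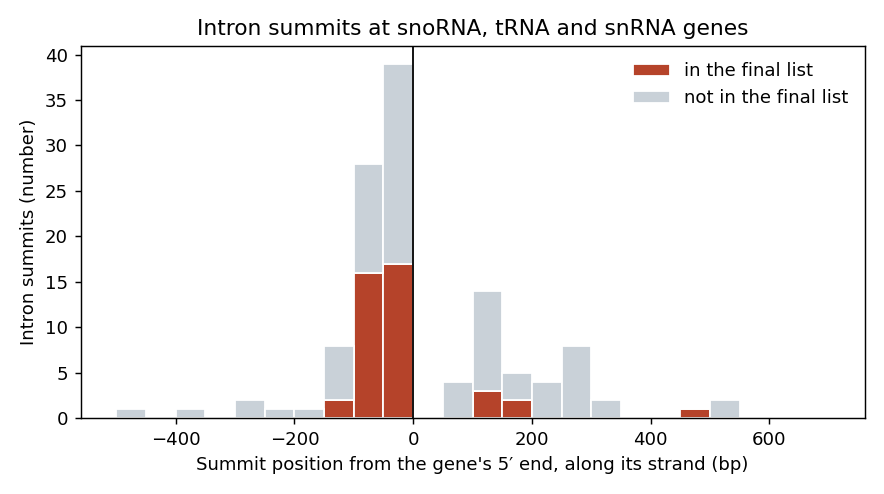
Number of intron summits by their position from the 5′ end of the nearest snoRNA, tRNA or snRNA gene in the intron, along that gene's strand, in 50 bp bins, with final summits in red and the others stacked on them in grey. Of 41 final summits, 35 fall between -114 and -4 bp and 6 downstream of the gene. Summits inside the small RNA gene are left out by the rule and not drawn.

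Among the other small RNA genes, final summits were densest near miRNA genes and sparsest near piRNA genes, both on few final summits. Of 101 miRNA genes in introns, 22 had an intron summit within 500 bp and 8 a final one, at 21 summits of which 6 were final (28.6%, exact 95% interval 11.3 to 52.2). The strongest was in intron 1 of F09A5.3, near mir-54, with a signal of 81.5 in the pooled list, 32.99 in replicate 1 and 46.6 in replicate 2. The small RNA gene nearest to it was F09A5.11, annotated only as ncRNA, 168 bp away. In the same host, mir-54 had 2 final summits nearby and mir-55, mir-55b and mir-56 had 1 each, so the 8 miRNA genes are not 8 separate sites. In intron 11 of gcn-1 the summit lay 279 bp upstream of mir-229 and had 57.5, 37.5 and 20.1. Summits near mir-5595 in nurf-1, a gene for a chromatin remodelling subunit, and near mir-90 in K01F9.2 had pooled signals of 53.6 and 50.04. Of 2809 genes annotated only as ncRNA, 354 had an intron summit nearby and 36 a final one, and 10.3% of the 301 summits near them were final. The final ncRNA summits had no such lean to the 5′ side, as 12 of 31 lay upstream. The 5063 piRNA genes in introns, which make the small RNAs that bind PRG-1 in the germline, had 152 intron summits near them, of which 1 was final (0.658%, interval 0.0167 to 3.61, which takes in the 2.30% of intron summits near neither a small RNA gene nor an internal start). That summit was in Y57G11C.22, with a signal of 88.7, and the next, in nhr-46, lntl-1 and lin-66, had 39.8, 37.3 and 37.02. No ribosomal RNA gene lay inside an intron.

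**Figure D4:**
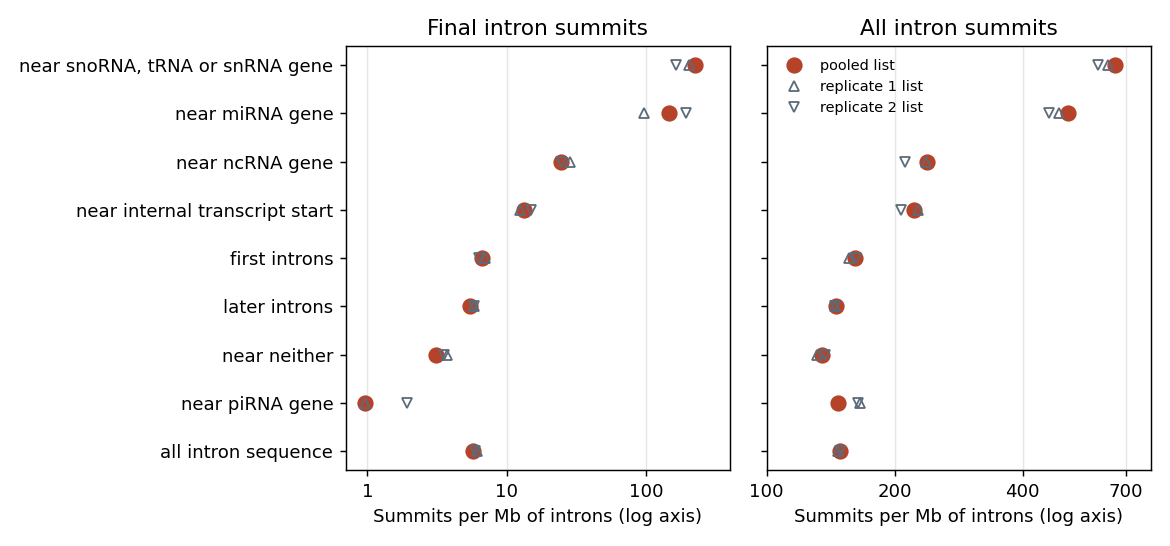
Intron summits per Mb of the intron sequence that the rule allows (log axes), for sequence within 500 bp of snoRNA, tRNA and snRNA genes together and of each other kind of small RNA gene, near internal transcript starts, in first and later introns and near none of these, with final summits left and all intron summits right. Circles are the pooled list and triangles the 2 replicate lists, cut to as many peaks. Among the groups drawn, final summits ranged from 0.967 per Mb near piRNA genes to 224 per Mb near snoRNA, tRNA and snRNA genes together.

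Annotated start sites inside the gene were the second feature at which final intron summits were dense. The rule gives each gene a single 5′ end, and 9407 other annotated starts of coding transcripts remain. Their windows, 1000 bp upstream to 200 bp downstream, covered 10.8% of the allowed intron bases and held 713 intron summits (16.03%) and 43 of the 170 final ones (25.3%, exact 95% interval 18.95 to 32.5). This is 13.4 final summits per Mb, against 4.77 per Mb away from such starts, a ratio of 2.81 (replicates 2.71 ± 0.530, SD, n = 2). Over all intron summits the ratio was 1.58 (1.56 ± 0.138). Of the 43, 42 lay upstream of the start, with a median position of -275, in a window that itself extends mainly upstream. The strongest was in intron 1 of R02F2.1, at -316 with signals of 101.3 in the pooled list, 50.9 in replicate 1 and 47.4 in replicate 2. Next came pbrm-1, for a subunit of a SWI/SNF chromatin remodeller, at -917 with 88.4, pcyt-2.1 at -172 with 86.9 and ZK1193.2 at -345 with 83.05. Small RNA genes lay near 3 of these 4 summits, one annotated only as ncRNA in pbrm-1, a snoRNA gene in pcyt-2.1 and a tRNA gene in ZK1193.2, and 11 final intron summits in all had both features.

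First introns differed little from later ones. They held 1095 intron summits, or 161 per Mb, against 3352 or 145 per Mb in later introns, a ratio of 1.11 (replicates 1.10 ± 0.0243). For final summits the rates were 6.64 per Mb in first introns, with 45 summits, and 5.42 per Mb in later introns, with 125, a ratio of 1.22 (replicates 1.14 ± 0.0655). Away from internal starts the final rate was 4.15 per Mb in first introns and 4.93 per Mb in later introns, a ratio of 0.842 (replicates 0.902 ± 0.107). The lead of first introns among final summits thus did not remain once internal starts were left out. At matched intron length no order held. From 300 to 999 bp the rate was 128 per Mb in first introns and 135 per Mb in later introns, from 3000 to 9999 bp it was 205 and 194 per Mb, and from 10000 bp up 171 and 244 per Mb. The strongest first-intron summits were those in T28F4.1, R02F2.1 and nova-1, the last a gene for a neuronal splicing regulator, with signals of 107, 101.3 and 90.1. Those of later introns, in Y41G9A.17 and vab-10, were higher.

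Sequence with neither feature still held 76 of the 170 final intron summits (44.7%, exact 95% interval 37.1 to 52.5) and 3308 of all intron summits (74.4%). Their rate was 3.10 final summits per Mb over 82.3% of the allowed bases. Y41G9A.17, vab-10, mnk-1, Y111B2A.12, mom-1, zfp-1 and larp-1 were among them.

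Final intron summits lay on sequence unlike that of other intron summits. The 100 bp on either side had a median GC content of 44.3%, against 32.8% at intron summits that were not final and 38.8% at final summits in promoter windows. It was 33.3% in 3646 windows 500 bp from an intron summit in the same intron. Those windows, used below as well, flank all intron summits and not the final ones alone. By kind of site, the median at final intron summits was 49.3% near a small RNA gene, 42.3% near an internal start and 40.3% near neither. The mean over 50 bp at the summit was 42.8% in final members and 31.9% in the others, and at 500 bp downstream on the plus strand 36.7% and 33.2%. In the replicates' own strongest intron peaks the median was 42.4% ± 2.29 (SD, n = 2). At least 50% of the window was soft-masked as repeat in 8.82% of final intron summits and 37.2% of the others. Counted by single bases, which is not the same measure, 51.97% of the allowed intron sequence was masked. A run of T or A such as TTTTTT occurred in 47.6% of final windows and 72.9% of the others.

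**Figure D5:**
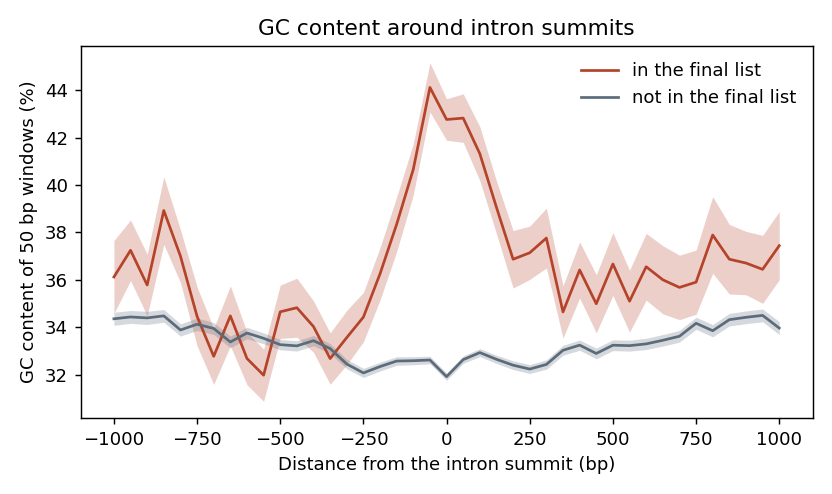
Mean GC content of 50 bp windows by distance from the intron summit along the plus strand, for final intron summits (red) and the others (grey), with bands of 1 standard error over summits. Windows that leave the intron or the allowed sequence are left out. Final summits reach 44.1% at -50 bp, and the others stay between 31.9% and 34.5%.

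The letters GAGAGA, counted on both strands, were in the windows of 80 of the 170 final intron summits (47.1%, exact 95% interval 39.4 to 54.9), against 14.5% of the other intron summits (13.5 to 15.6). They were in 11.6% of windows 500 bp from any intron summit. They were in 27.9% of final promoter summits (24.9 to 31.1), 18.2% of all pooled summits and 8.34% of all tiles of that length in the allowed intron sequence. The replicates' strongest intron peaks gave 44.2% ± 5.83 (SD, n = 2). Conversely, 11.4% of intron summits with GAGAGA were final (9.14 to 13.98), against 2.40% of those without (1.94 to 2.95). The share was similar at every kind of site: 46.8% of final summits near a small RNA gene, 51.2% near an internal start and 43.4% near neither, and 48.9% in first introns against 46.4% in later ones. Of the 20 strongest intron summits 11 held it.

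Among all words of 6 bases, GAGAGA had the largest difference between final intron summits and windows 500 bp from any intron summit, and AGAGAC the next. AGAGAC was in 38.2% of final windows and 7.79% of those 500 bp away. Further down, AGACGC was in 23.5% of final windows and 4.004% of those away. The word of 10 bases held by most final windows overlaps both. It was GAGACGCAGA, in 19 of 170 windows (11.2%, exact 95% interval 6.86 to 16.9), against 1.47% of the other intron summits and 0.850% of windows 500 bp away. It was in 8.08% of final promoter summits and in 0.907% of intron tiles. It was chosen as the commonest word of these windows, so its share there is a description. In the replicates' strongest intron peaks the share was 9.47% ± 0.187 (SD, n = 2), over peaks that largely overlap the final ones. Of the 82 intron summits with it, 23.2% were final (14.6 to 33.8), against 3.46% of those without. Among other pooled peaks the same shares were 31.5% with it and 10.8% without. The nearest copy lay a median of 51 bp from the summit, and 9 of 19 lay within 50 bp. The line for epg-9 has 2 copies. The E-box CACGTG was in 7.06% of final windows and 4.06% of those 500 bp away, and the GATA factor word TGATAA in 9.41% and 17.3%.

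Longer host genes and longer introns held more intron summits per Mb, while the percent of them that were final was lowest in the longest genes. In host genes under 3000 bp the rate was 94.5 per Mb, and in steps to 6000, 12000 and 24000 bp it was 118, 154 and 193, and 239 per Mb in genes of 24000 bp or more. The percent that were final was 4.15, 5.02, 3.78, 3.42 and 2.71 in the same order, with overlapping intervals for neighbouring steps. Per Mb, final summits were fewest in host genes under 3000 bp, with 3.92 (replicates 3.57 ± 0.757, SD, n = 2), and in the further steps they were 5.91, 5.83, 6.61 and 6.46 per Mb (replicate means 5.51, 6.45, 7.74 and 7.54). By intron length the rate over all intron summits was 101.3 per Mb under 100 bp and 208 per Mb from 10000 bp up. Final summits were 1.70 per Mb under 100 bp. In steps to 300, 1000, 3000 and 10000 bp they were 7.09, 5.56, 4.93 and 7.79 per Mb. From 10000 bp up they were 7.64 per Mb, on 11 final summits (replicates 8.34 ± 2.95). Above 100 bp the final rate thus did not rise steadily with intron length. The median host gene was 7894 bp long for final intron summits and 9653 bp for the others, and the median intron 1085 and 1235 bp. The intron summits fell in 2466 genes of 17528 that have allowed intron bases, and the final ones in 153. Of these 153 hosts, 13.1% also had a final summit in their own promoter window (exact 95% interval 8.17 to 19.5), against 8.04% of hosts with weaker intron summits only (6.97 to 9.22) and 4.60% of genes with none (4.27 to 4.95). Median gene length was 7401, 5786 and 2065 bp in these groups.

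The genes with most intron summits were long, and most of those summits were not final. Over all intron summits 3.82% were final. Gene gcn-1, whose product sits on stalled ribosomes and activates the kinase GCN-2, had 32 intron summits over 45964 bp on chromosome III, with 30 in replicate 1 and 27 in replicate 2, and 1 of the 32 was final. Among the other long genes, there were 16 each in vab-10, in kin-1, for the catalytic subunit of protein kinase A, and in daf-16, for the FOXO factor of insulin signalling, of which 2, 2 and 1 were final. The cadherin gene hmr-1 and lmd-3 had 15 each, with 1 and 0 final, and aakg-1, for a subunit of AMP-activated kinase, had 14 with none final. Of these genes, gcn-1 was the only one with a final summit in its own promoter window. Per kb of allowed intron, gcn-1 had 0.871 summits and hmr-1 0.316.

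Gene groups differed widely in how often their introns held a summit, and the groups were compared by counts only. Over all host genes the rate was 149 per Mb (replicates 148 ± 1.30, SD, n = 2). Of all genes with allowed intron bases 14.1% held an intron summit, and 3.82% of intron summits were final. The median allowed intron sequence per gene was 735 bp over all hosts, 508 bp for chemoreceptor genes and 3810 bp for adhesion genes. On few summits, the final share was 4.88% in muscle, 5% in chaperone, 2.33% in splicing and 2.63% in adhesion genes. Muscle filament and attachment genes had 82 intron summits in 25 of 58 genes, or 325 per Mb (329 per Mb in each replicate), of which 4 were final. Besides vab-10 they were led by unc-89, the giant obscurin-like protein of the M-line, with 50.8, and unc-54, the major body wall myosin heavy chain, with 48.3. Chaperone genes had 40 in 16 of 53 genes, or 461 per Mb (432 ± 24.4), 2 of them final. These were in cct-5, a chaperonin subunit, with a signal of 51.2, and in dnj-20, a DnaJ co-chaperone, with 50.7, and hsp-60 had 39.9 and was not final. Splicing and RNA-binding genes had 43 in 19 of 58, or 230 per Mb (206 ± 18.9), with 1 final summit, in the hnRNP K gene hrpk-1 with 62.7 at an internal start. Adhesion and axon guidance genes had 114 in 37 of 95, or 189 per Mb (181 ± 21.1), with final summits in unc-33, hmr-1 and unc-73.

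Receptor and channel genes lay at the low end. Chemoreceptor genes had 38 intron summits in 33 of 1291 genes, or 42.5 per Mb (replicates 59.8 ± 3.95), with 2 final, in srh-2 with 50.5 and srt-52 with 49.4. C-type lectin genes had 5 in 5 of 235, or 27.8 per Mb (36.1 ± 3.93), with none final, and the strongest, in clec-221, had 23.6. F-box genes had 6 in 4 of 254, or 38.5 per Mb (44.9 ± 18.1). Potassium channel genes had 83.1 per Mb (105 ± 22.6), ligand-gated ion channel genes 91.5 (79.6 ± 2.40) and neuropeptide and amine receptor genes 92.6 (100.2 ± 13.7). Nuclear hormone receptor genes, with 144 per Mb (150.5 in each replicate), and homeobox and bHLH factor genes, with 149 (146 ± 3.98), were near the rate over all hosts. In the last group hif-1, for the hypoxia-inducible factor, and hlh-30, the worm TFEB, had final summits with 49.3 and 49.2.

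In several groups a final summit sat at a small structural RNA gene. This was so for twk-5 in the potassium channel list, with 73.05 at a snoRNA gene, for nhr-17 in the receptor list, with 71.9 at a tRNA gene, for unc-33 in the adhesion list, with 61.3 at a tRNA gene, and for fbxl-4 in the F-box list. The collagen list had 7 intron summits in 6 of 134 genes, of which 4 were final. Of those 4, 3 were at such genes: the summit of col-85 at a tRNA gene, with 58.8, and the pair in rol-3 at a snoRNA gene, the stronger with 61.4. Gene rol-3 entered by its name and encodes a receptor tyrosine kinase, not a collagen. The fourth was in col-159, with 55.5. Ribosomal protein genes have almost no allowed intron sequence, 0.00436 Mb in 39 genes. They held 3 intron summits, in rpl-3, rpl-19 and rps-17 with signals of 19.9, 18.7 and 16.6, and none was final.

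Along the chromosomes, intron summits were denser in the middle of the autosomes. The middle 50% of each autosome held 191 intron summits per Mb of allowed sequence, against 126 in the outer parts, and 8.43 final ones per Mb, against 4.27. By chromosome the rate was 167 on I, 154 on II, 178 on III, 152 on IV, 119.5 on V and 127 on X. Final intron summits were 7.89 per Mb on I and 8.75 on III, and from 3.61 to 5.22 per Mb on the other chromosomes.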

How the data were processed

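Peaks were those the authors called and deposited for each of 2 biological replicates and for both together, each against a control alignment, per the file headers and description files. The aligner, peak caller and their versions, the irreproducible discovery rate (IDR) threshold and the read depth were not given in the sources used here. Nothing says whether the 2 replicates came from separate cultures, so the spread between them may be partly technical. Each deposited peak has a signal value from the authors' caller, used only to describe and rank peaks within a list, and a deposited −log10 q-value, which was not used further. Only the ce11 lists were used. Libraries had a size range of 150 to 350 bp, per the labels.

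From these lists, summits (the deposited offset, counted from 1) were placed on Ensembl release 115 genes of WBcel235 on 6 nuclear chromosomes. Within a gene, a base went to the intron of the longest coding transcript that has an intron there, and was numbered in that transcript. Where introns of different genes overlapped, the base went to the shortest of them. Rates are per Mb of allowed sequence: intron of a coding gene, no exon, no promoter window. Replicate lists were cut to the 15675 peaks of highest signal, and to 1446 for comparison with the final list. Overlap was instead sought in the whole replicate lists, of 26798 and 25463 peaks, and meant at least 1 bp. Small RNA genes had to lie wholly in the intron and within 500 bp. GC content and words used windows of 100 bp on either side of a position, both strands, of RefSeq sequence. No p-value was computed, because there is 1 group and peaks are not replicates. The calculation of the rate ratio was run on simulated summits with a planted ratio of first to later introns. That checks the arithmetic only and says nothing on the observed ratio. Work was done in Python 3.11.15 with numpy 2.4.6, pandas 2.3.3, scipy 1.17.1 and matplotlib 3.10.9.

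Genes named are the hosts of the 20 strongest intron summits, the 8 hosts with most of them, the strongest in first and later introns, near each small RNA kind, near internal starts and in each of 14 gene lists, and summits at the window edges, but for a site and a host gene that are not reported here. The members and lists were chosen with earlier results of these data known. Alternatives tried were other promoter windows, the upper 50% of peaks by signal, other distances and overlaps, another numbering of introns and each replicate alone.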

Additional observations from a re-analysis of the deposited data

How the results depend on the processing

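The number of 4447 intron summits was 1919 in the upper 50% of pooled peaks by signal, by the construction of that alternative, and stayed within 1.5 times under the others. Their share in the final list, 3.82%, was 4.004% with the window of 500 bp upstream to 100 bp downstream, 3.40% with a window at every annotated transcript start and 3.98% to 4.14% without each replicate, all below the 9.22% of all pooled peaks. In the upper 50% by signal it was 8.86%. That alternative keeps every final peak and drops only others, which raises the share of all pooled peaks too. The 8.86% is therefore not to be set beside the 9.22%. The rate in first against later introns, 1.11, was 1.19 with the window of 2000 bp upstream to 500 bp downstream, 1.05 with every transcript start, 1.17 in the upper 50% by signal, 1.30 with the first intron of any coding transcript, and 1.08 to 1.12 without each replicate. The share near an internal start, 16.03%, was 18.4% in the upper 50% by signal. The share near a small RNA gene, 11.8%, was 12.6% with the 2000 bp window, 14.8% in the upper 50% by signal, 9.17% at a distance of 250 bp and 15.04% at 1000 bp. The median signal of 19.98 was 25.3 in the upper 50% by signal. Overlap in each replicate list, 61.1%, was 51.1% when 50% of the peak had to overlap, 84.1% in the upper 50% by signal, and 78.1% to 81.9% when 1 replicate list alone was asked for. In alternatives chosen after seeing the data, the share of final intron summits near a small RNA gene, 36.5%, was 28.2% without genes annotated only as ncRNA, and 28.8% to 34.1% without each replicate. The cause of these changes was not tested. No paired analysis was possible because there is 1 group. Depth is unknown, so which weak summits it limits could not be judged, and the final list has no replicate error of its own.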
